A study of Mus musculus with 11 samples.

Results

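Choroid plexus transcripts were examined as a group of 10 genes, Ttr, Enpp2, Sulf1, Prlr, Kl, Folr1, Clic6, Slc4a5, Aqp1 and Otx2, out of 24421 genes in the files. They were put together as genes of the choroid plexus epithelium and selected on their normalized values in these same samples, so their differences between regions are given below as a description and without a test. All 10 were found in the files by symbol. RNA-Seq had been performed on eGFP+ cells sorted by FACS from 16-week-old BAC Aldh1l1-eGFP mice, in which a bacterial artificial chromosome with the regulatory sequence of Aldh1l1, an astrocyte gene, drives the green reporter. The mice were of C57BL/6 background, males and females were used, and the labels name no other allele and no treatment. The 11 samples comprised 3 of olfactory bulb (OB), 3 of hippocampus (HC), 2 of cortex (CX) and 3 of brainstem (BS). Nothing in the labels says whether samples of a region came from separate animals, so p-values measure only the spread between these samples.

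The choroid plexus is a sheet of epithelium on a vascular core that hangs into the ventricles and secretes cerebrospinal fluid. Its epithelial cells move ions and water from the blood side to the ventricle, carry hormones and vitamins across, and release carrier proteins into the fluid. Parts of the tissue lie next to the hippocampus and next to the brainstem. It is not part of the olfactory bulb or of the cortical sheet. Otx2, a homeodomain transcription factor, is required for the formation and upkeep of this epithelium.

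A value below is the normalized read count, the number of reads on a gene divided by one size factor per sample. Between 2830746 and 14151670 reads per sample lay on genes, and the detection floor, set at 3 reads, was a value between 1.10 and 6.31 depending on the sample. Such floors cover counting error only. The 10 members took between 0.0589% and 0.0707% of the reads in OB samples, and 0.0517% and 0.119% in CX samples. Their share was 2.10% to 4.77% in HC samples and 1.24% to 6.29% in BS samples. The astrocyte list was abundant in every sample, with Slc1a2, the main glutamate transporter of astrocytes, at a mean of 507178 in the CX and 128002 in the BS. In these bulk samples, fewer cells of a type and less RNA per cell cannot be told apart.

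Upstream windows of 3 members are shown. Kl and Otx2 were among the genes that were lowest in the OB, and Aqp1 among those that were lowest in the CX. Otx2 was also the member called in the BS, by an unadjusted p only. Each window holds the 250 bases before an annotated RefSeq start in GRCm38.p6, printed 5′ to 3′ on the strand of the gene, and capitals mark CG dinucleotides. The Kl window is chr5:150952357-150952606 on the plus strand, the Aqp1 window chr6:55336049-55336298 on the plus strand and the Otx2 window chr14:48667645-48667894 on the minus strand.
Kl: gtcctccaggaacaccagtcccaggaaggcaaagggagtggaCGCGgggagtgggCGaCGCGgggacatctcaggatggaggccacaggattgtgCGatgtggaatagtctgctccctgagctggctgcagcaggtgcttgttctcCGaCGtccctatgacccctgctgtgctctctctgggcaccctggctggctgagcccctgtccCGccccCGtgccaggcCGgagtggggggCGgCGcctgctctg
Aqp1: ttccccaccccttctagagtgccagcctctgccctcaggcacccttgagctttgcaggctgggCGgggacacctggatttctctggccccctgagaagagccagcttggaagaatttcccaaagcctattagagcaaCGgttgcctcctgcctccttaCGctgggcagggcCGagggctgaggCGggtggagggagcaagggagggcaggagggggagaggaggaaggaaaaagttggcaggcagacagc
Otx2: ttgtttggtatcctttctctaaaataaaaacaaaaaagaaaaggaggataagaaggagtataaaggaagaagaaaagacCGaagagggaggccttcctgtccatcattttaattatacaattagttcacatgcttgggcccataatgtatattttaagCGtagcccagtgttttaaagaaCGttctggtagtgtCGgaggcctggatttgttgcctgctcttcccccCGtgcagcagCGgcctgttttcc
The Kl window held 13 CG dinucleotides with a GC content of 66.8%, the Aqp1 window 5 with 62%, and the Otx2 window 6 with 42%, against a median of 6 over all 32851 windows of that length. The letters TAATCC, the core recognized by Otx homeodomain proteins, were searched on both strands (GGATTA on the other strand). They occurred in none of the 3 windows shown, in 1 of 10 windows of the 5 members with an entry (Kl, Aqp1, Slc4a5, Otx2 and Prlr) and in 6.25% of all windows. The 1 match was in another window of Otx2 that overlaps an annotated exon. Such a match describes the letters only.

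Ttr encodes transthyretin, the carrier of thyroxine and retinol-binding protein that the choroid plexus secretes into the cerebrospinal fluid. The gene lies on chromosome 18 of GRCm38 from 20665280 to 20674321, plus strand. Its value was 6.52, 16.6 and 5.39 in OB replicates 1 to 3, which rest on 6, 21 and 10 reads. CX replicates 1 and 2 stood at 4204 and 1323. HC replicates 1 to 3 had 132046, 65549 and 124536, and BS replicates 221911, 46376 and 108256. The OB, the CX and the pair of HC and BS formed 3 levels without overlap, while the HC and BS samples overlapped. The HC mean was 11311-fold and the BS mean 13221-fold above the OB mean, and the CX mean was 291-fold above it. The HC was 38.9-fold above the CX.

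Ttr was the member with the highest level per kilobase of exon in the HC, CX and BS. Its mean per kilobase was 90537 in the HC and 105830 in the BS. The next, Enpp2, stood at 9941 and 11982 in these regions. In the HC the others followed as Clic6 at 461 per kilobase, Kl at 433, Prlr at 174, Otx2 at 154, Slc4a5 at 115, Folr1 at 113, Sulf1 at 77.9 and Aqp1 at 63.6. In the OB the order was different, with Enpp2 highest at 438 per kilobase, Aqp1 second at 64.2 and Ttr at 8.0.

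**Figure D1:**
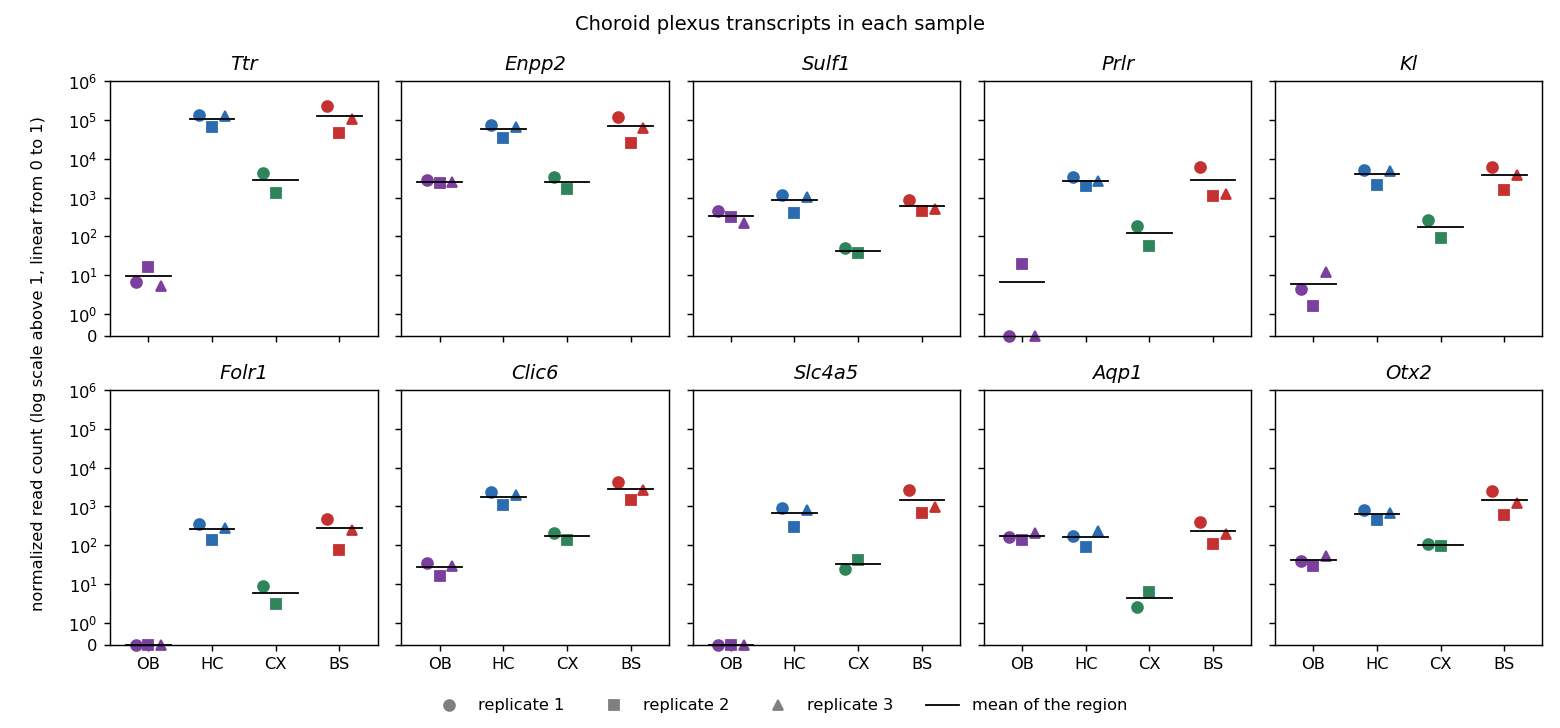
Normalized read count (vertical axis, logarithmic above 1 and linear from 0 to 1) of each of the 10 members in the 11 samples, by region, with one symbol per replicate number and a line at the region mean. Ttr lies between 46376 and 221911 in the 6 HC and BS samples and between 5.39 and 16.6 in the OB, whereas Aqp1 and Sulf1 are lowest in the CX.

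Enpp2 encodes autotaxin, a secreted enzyme that makes lysophosphatidic acid, and is also expressed by oligodendrocytes. It lies on chromosome 15 from 54838901 to 54952892, minus strand. Its value was 2744, 2298 and 2549 in the OB, and 3346 and 1619 in the CX. It reached 73682, 33929 and 64729 in the HC and 121680, 24798 and 61261 in the BS. All 6 HC and BS samples lay above all OB and CX samples, by 22.7-fold for the HC mean against the OB mean. The OB and CX samples overlapped and their means differed 1.02-fold, so that Enpp2 lacked the step from CX to OB that Ttr showed.

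Sulf1 encodes a secreted sulfatase that removes sulfate groups from heparan sulfate. It lies on chromosome 1 from 12692277 to 12861192, plus strand. Its value was 463, 313 and 226 in the OB and 1182, 410 and 1047 in the HC. The CX stood at 49.0 and 36.8, below every other sample, and the BS at 864, 455 and 520. The CX mean was 7.78-fold below the OB mean, the nearest region. BS and OB samples overlapped, as did HC and BS samples.

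Prlr, Kl and Folr1 encode proteins by which the epithelium receives or carries factors from blood. Prlr is the prolactin receptor, on chromosome 15 from 10177238 to 10349180, plus strand. It had no read in OB replicates 1 and 3, a value of 19.7 in OB replicate 2 from 25 reads, and 190 and 55.2 in the CX. It was 3421, 1964 and 2608 in the HC and 6145, 1076 and 1261 in the BS. The OB mean rested on 1 sample, and even that sample lay below both CX samples.

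Kl encodes klotho, a co-receptor of fibroblast growth factor 23 that is also shed as a hormone, and lies on chromosome 5 from 150952607 to 150993817, plus strand. Its value was 4.34, 1.58 and 11.9 in the OB, from 4, 2 and 22 reads. The CX samples had 264 and 92.0. The HC samples had 5233, 2164 and 4723, and the BS samples 5981, 1537 and 3715. Kl was 22.7-fold higher in the HC than in the CX and 30.0-fold higher in the CX than in the OB. Its HC mean was 1.08-fold above its BS mean, a difference smaller than the spread within either region.

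Folr1 encodes folate receptor alpha, which carries folate from blood to cerebrospinal fluid, and lies on chromosome 7 from 101858331 to 101870788, minus strand. No read lay on it in any of the 3 OB samples. Its value was 8.79 and 3.07 in the CX, from 7 and 2 reads. It was 364, 141 and 274 across HC replicates and 487, 76.1 and 253 across BS replicates. With 3 reads taken as the floor over the whole OB, a value of 0.742, it was at least 350-fold higher in the HC and at least 366-fold higher in the BS.

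Clic6, Slc4a5 and Aqp1 belong to ion and water movement. Clic6 encodes a chloride intracellular channel protein and lies on chromosome 16 from 92485736 to 92541243, plus strand. Its value was 35.8, 15.8 and 29.1 in the OB, and 2299, 1106 and 2003 in the HC. It was 207 and 140 in the CX, and 4370, 1438 and 2648 in the BS. The step from OB to CX was 6.45-fold for the means and that from CX to HC 10.4-fold.

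Slc4a5 encodes a sodium bicarbonate cotransporter of the apical, ventricle-facing membrane, and lies on chromosome 6 from 83219828 to 83304945, plus strand. Like Folr1 it had no read in the OB. The CX samples had values of 23.9 and 41.4, the HC samples 898, 302 and 799, and the BS samples 2669, 669 and 972. It was at least 898-fold higher in the HC and at least 1937-fold higher in the BS than the floor over the OB. The BS mean was 2.16-fold above the HC mean with overlapping samples.

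Aqp1 encodes the water channel of the ventricle-facing membrane, also present in some sensory neurons and, outside the brain, in red cells and kidney. It lies on chromosome 6 from 55336432 to 55348555, plus strand. Its value was 162, 135 and 209 in the OB and 177, 89.5 and 234 in the HC. The BS held 400, 108 and 198. Samples of these 3 regions overlapped, and the OB and HC means differed 1.01-fold. Only the CX stood apart, at 2.51 and 6.13 from 2 and 4 reads, 38.6-fold below the HC mean. Between the same OB and HC samples, Ttr differed 11311-fold.

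Otx2 lies on chromosome 14 from 48657677 to 48673819, minus strand. Its value was 40.2, 29.2 and 53.9 in the OB, from 37, 37 and 100 reads, and 107 and 96.6 in the CX. It was 830, 448 and 671 in the HC and 2445, 609 and 1223 in the BS. Its lower steps were smaller than those of the other genes lowest in the OB, with the CX mean 2.48-fold above the OB mean and the HC mean 6.39-fold above the CX mean. Its BS mean was 2.19-fold above its HC mean with overlapping samples, the widest such step among these genes. Exons of Otx2 overlap those of Otx2os1, an antisense RNA with a mean value of 11.3, and the strand of the counting is not given in the sources used here, so reads of both cannot be told apart at the overlap. Exons of Enpp2 and Prlr likewise overlap other annotated genes that have no row under their symbol.

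The order of the regions was shared by 7 of the 10 members. The members were selected on these values and the share of all genes with that order was not counted, so nothing is read from this count. Ttr, Prlr, Kl, Folr1, Clic6, Slc4a5 and Otx2 had overlapping HC and BS samples at the top, then the CX, then the OB, and no overlap between these 3 levels. Enpp2, Aqp1 and Sulf1 departed from it, all 3 through a higher place of the OB. In a fit of one region against all samples outside it, the log2 difference of the members had a median of -5.97 in the OB, with a range from -12.05 for Ttr to 1.19 for Aqp1. Folr1 and Slc4a5 had no OB read. Their bound was the log2 ratio of the value that 3 reads over the OB allow to the mean of the other samples, without a pseudocount. With both placed there the median was -6.74, which mixes this measure with that of the fit and is not comparable with -5.97. The median was 3.51 in the HC, from 1.05 to 6.38, and 3.88 in the BS, from 1.11 to 6.40. In the CX it was -1.57, from -5.13 for Aqp1 to -0.98 for Ttr. On recovered reads edgeR and DESeq2 gave other sizes with the same signs, at medians of 1.16 and 1.11 for the HC, 1.47 and 1.52 for the BS, and -4.02 and -4.01 for the CX. The differences of the first fit, unlike those of edgeR and DESeq2, are on the log2(value + 1) scale. In that fit the median of all 13875 genes tested lay between -0.03 and 0.02. The standard errors were wide where one region was set against a mixture of high and low ones, as for Ttr, with 6.40 ± 3.02 (SE) in the BS against -12.05 ± 1.29 in the OB.

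By the study's own kind of rule (unadjusted p under 0.01, fold over 1.5, value over 5 in at least 2 replicates), the fit across all genes called 8 members lower in the OB, where 3.89% of all genes tested were called lower and 4.15% higher. In the CX it called Aqp1 and Sulf1 lower, with 1.74% of all genes called lower and 1.02% higher. In the BS it called Otx2 higher, with 3.98% of all genes called higher and 5.05% lower. No member was called in the HC by limma, edgeR or DESeq2 (4 had an unadjusted p under 0.05 by limma and 0 by the other tools), where 0.281% of genes were called higher and 1.00% lower. The members were chosen with these contrasts known, so nothing is read from these counts. All 10 members passed the filter on low counts, some of them through the regions where they are high.

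For all 10 members the BS replicates spanned a wider range than the ratio between the BS and HC means. Ttr spanned 4.79-fold among the 3 BS samples and 2.01-fold among the 3 HC samples, against 1.17-fold between the BS and HC means. Folr1 spanned 6.39-fold within the BS, Prlr 5.71-fold and Enpp2 4.91-fold. Sulf1 spanned 1.90-fold there, the least of the 10. The spread had one order: all 10 members were lowest in BS replicate 2, intermediate in replicate 3 and highest in replicate 1, an order that 21.2% of the 13865 other genes tested had. In the HC 9 of 10 members, all but Aqp1, were lowest in replicate 2 and highest in replicate 1, with 16.8% of the other genes in that order. In the CX 8 of 10, all but Slc4a5 and Aqp1, were higher in replicate 1, against 48.5% of the other genes. In these 3 regions the order by replicate number was thus the same for most members, with replicate 2 below replicate 1. Over all genes tested, the deviations of same-numbered samples from different regions correlated from -0.16 to 0.25, and the labels do not say what a number stands for. The genes are measured in the same libraries, so the members are not independent of each other in these orders.

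Because every member of a library shares its depth and size factor, ratios within a library were also taken. For 1000 reads on Ttr, Enpp2 had between 518 and 566 reads in all 6 HC and BS samples, a 1.09-fold span, while Ttr itself spanned 4.79-fold and Enpp2 4.91-fold over the same samples. Kl spanned 27.0 to 39.6 reads per 1000 Ttr reads and Folr1 1.64 to 2.75. In the CX the ratio of Folr1 was 2.09 and 2.32, within the range of the HC and BS, but rests on 7 and 2 reads. Enpp2 was at 796 and 1224 per 1000 Ttr reads in the CX, Kl at 62.8 and 69.5, and Prlr at 45.1 and 41.7, all above their HC and BS ranges. In the OB, with 6 to 21 Ttr reads a sample, Enpp2 had 138619 or more reads per 1000 Ttr reads.

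Between HC and BS, 3 members differed in this ratio without overlap, all with more reads per Ttr read in the BS. Clic6 had 16.1 to 17.4 reads per 1000 Ttr reads in the HC and 19.7 to 31.0 in the BS. Slc4a5 had 4.61 to 6.80 and 8.98 to 14.4. Otx2 had 5.39 to 6.84 and 11.02 to 13.1, a 1.91-fold difference of the means. The ratios of Prlr, Kl, Folr1, Aqp1, Enpp2 and Sulf1 overlapped between the regions, and no member was higher per Ttr read in the HC. Of all genes, 3.08% had every BS sample above every HC sample in reads per Ttr read and 2.59% the reverse. Ttr itself spanned 4.79-fold over the 6 HC and BS samples. That spread enters the ratio of any gene that does not follow Ttr, so these shares are no baseline for genes that do. With 3 samples against 3 an exact permutation test cannot go below a two-sided p of 0.10, and none was run on the members.

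**Figure D2:**
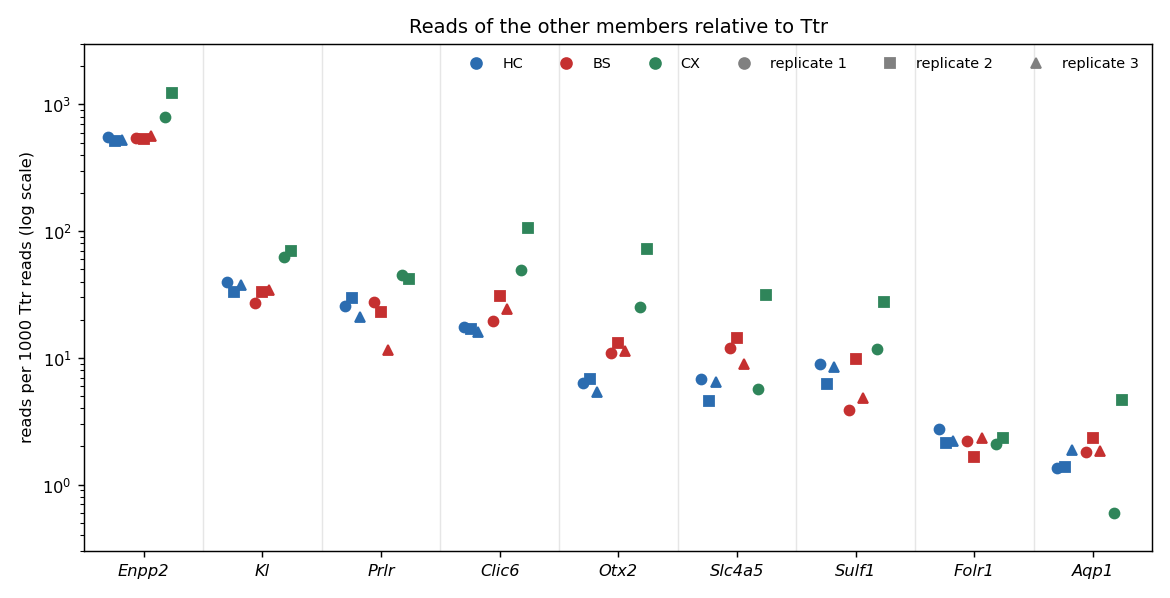
Reads of each other member per 1000 reads on Ttr (vertical axis, logarithmic) in the HC, BS and CX samples, with one symbol per replicate number. Enpp2 stays between 518 and 566 in the 6 HC and BS samples, while Clic6, Slc4a5 and Otx2 are higher in every BS sample than in any HC sample. The OB, with at most 21 Ttr reads a sample, is not shown.

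Across all 11 samples the members followed each other closely apart from Aqp1 and Sulf1. Over the 45 pairs, Pearson's r of log2(value + 1) had a median of 0.93 and ranged from 0.10, for Ttr with Aqp1, to 0.99, for Clic6 with Slc4a5. The median Spearman's rho was 0.91. The median r of Aqp1 with the other members was 0.26 and that of Sulf1 0.51, against medians from 0.90 to 0.97 for the other 8. The points are regions at separate levels, and members share library and depth, so r describes mainly the regional order. Without the OB samples (n = 8) the median r was 0.97, with the lowest pair at 0.90, and Aqp1 and Sulf1 then had medians of 0.96.

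Within regions, the deviations of the samples from their region mean had a median r of 0.70 over all 11 samples, from -0.07 to 0.99. Without the OB samples, in which several members are near or at 0 reads, the median was 0.84 and the range 0.44 to 1.00. That choice was made after the values were seen. The highest pair was Enpp2 with Folr1 (r = 0.996), followed by Ttr with Kl (r = 0.988). The lowest was Prlr with Aqp1 (r = 0.44). Aqp1 went most with Slc4a5 (r = 0.95), the pair that also shared the order of the 2 CX samples.

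**Figure D3:**
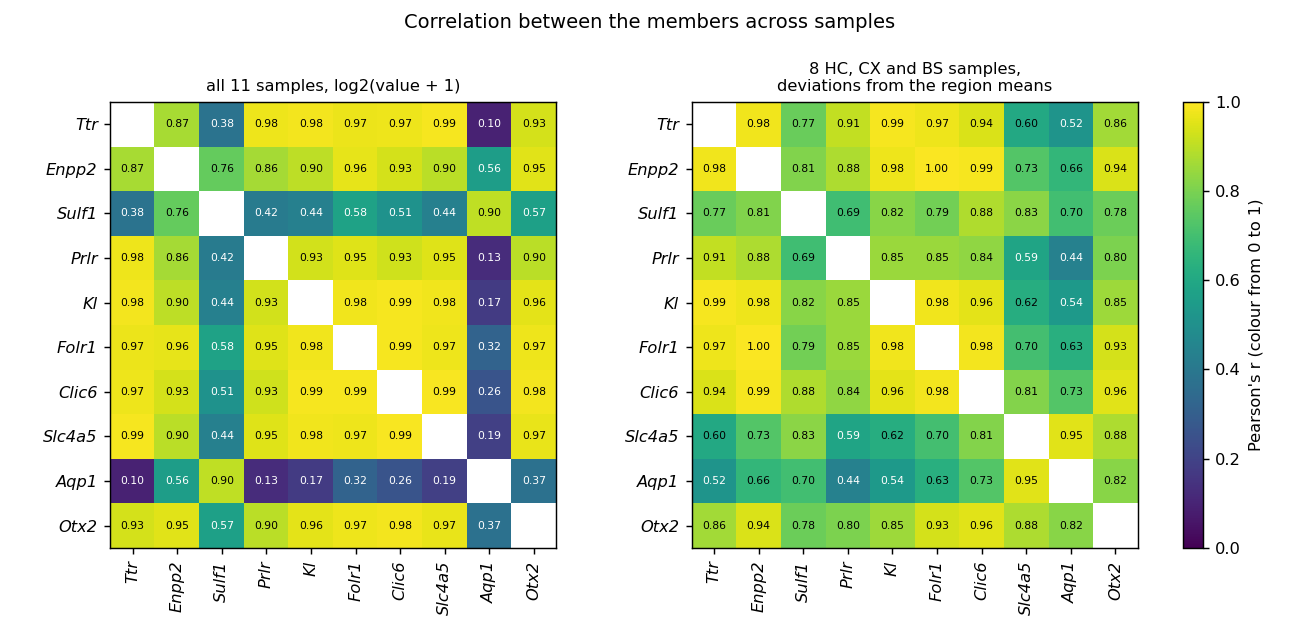
Pearson's r between each pair of members, as colour from 0 to 1 and as a printed value, over log2(value + 1) in all 11 samples (left) and over deviations from the region means in the 8 HC, CX and BS samples (right). Aqp1 and Sulf1 stand out on the left, with r down to 0.10, and all pairs are at 0.44 or above on the right.

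The genes most like Ttr were sought among 12632 other genes with a mean value of at least 10. Over the 11 samples the closest was Prr32 (r = 0.99), with no OB read, a CX mean of 33.2, an HC mean of 301 and a BS mean of 397. Epn3, Drc7, Kcne2, Steap1, Wdr86, Wdr63, Tmem72, Wdr72 and Htr2c followed, with r of 0.98 or more. Kcne2, Steap1, Tmem72 and Htr2c were on the list of further choroid plexus genes described next. By deviations from the region means the closest were Car12 (r = 0.96), a carbonic anhydrase, then Usp33, Cd55, Hook1, Tmem160, Sostdc1, Lbp, Gm11992, 1700040L02Rik and Rps15a, with r of 0.94 or more. These deviations include the OB samples, where Ttr rests on 6, 21 and 10 reads. In both rankings the genes were picked from 12632 by r itself over 11 samples. Their high r was not tested. No gene was in both lists. Several of the second list varied little between regions: Usp33 had means from 340 in the CX to 440 in the BS, and Rps15a from 429 to 663.

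A list of 29 further genes of the choroid plexus epithelium was compared between regions, of which 28 were in the files and 27 passed the filter. It too was drawn up with earlier results of these data known and is not independent evidence of a direction. In the OB 19 of 27 were called lower and none higher, with 3.89% of all genes called lower, and 14 of them held at an adjusted p under 0.05. Of the 27, 8 had fewer than 3 reads over the OB and had passed the filter through the regions where they are high, and 7 of these 8 were called, so that the count supports nothing by itself. Of the other 19, 12 were called. The median log2 difference of the 27 was -4.24. With the 6 genes without an OB read at the bound that 3 reads allow, it was -4.77. That bound was taken without a pseudocount, as for the members, so the second median mixes measures and is not comparable with the first. Kcne2, a potassium channel subunit of the apical membrane, had 2 reads over the OB against means of 483 in the HC and 805 in the BS. Sostdc1, a secreted antagonist of bone morphogenetic proteins, had 5 OB reads and means of 614 and 837 in those regions. Htr2c, the serotonin 2C receptor, with 26 OB reads, fell by 5.86 ± 0.94 (SE) on the log2 scale in the OB (limma, Benjamini-Hochberg adjusted p = 0.00247). Tmem72 had no OB read and a mean of 255 in the HC and 456 in the BS.

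In the other regions few of the further genes passed. In the HC none was called by limma, edgeR or DESeq2, although all 27 lay above the other regions, by 1.45 to 4.31 on the log2 scale with a median of 2.98. There 9 had an unadjusted p under 0.05 by limma, 0 by edgeR and 1 by DESeq2. In the CX only Perp was called, a membrane protein of epithelial junctions (log2 difference -3.17 ± 0.95, limma, adjusted p = 0.31), and the median was -2.35. Of all genes, 1.74% were called lower there. In the BS only Lmx1a was called, a transcription factor of the roof plate from which this epithelium derives (4.09 ± 1.19, limma, adjusted p = 0.0605), and the median was 3.14. Of all genes, 3.98% were called higher there, so nothing about the list is read from these single calls. The counts of further genes called depend on what a region is set against. Each region was also compared with the mean of the other 3 region means, so that differences among those did not enter the error. There 25 further genes were called higher in the HC, 24 higher in the BS, 17 lower in the CX and 23 lower in the OB. The share of all genes called was not counted for this comparison or with a sample left out. Nothing about the list is therefore read from these counts. Without BS replicate 1, the library with the highest member values, the counts were 9 higher in the HC and 0 in the BS. Without BS replicate 3 they were 3 and 0, and without BS replicate 2, 0 in the BS. The BS count rose to 13 without HC replicate 1 and to 9 without HC replicate 3. The CX count was 2 without OB replicate 1, 4 without OB replicate 3 and 0 without CX replicate 2.

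**Figure D4:**
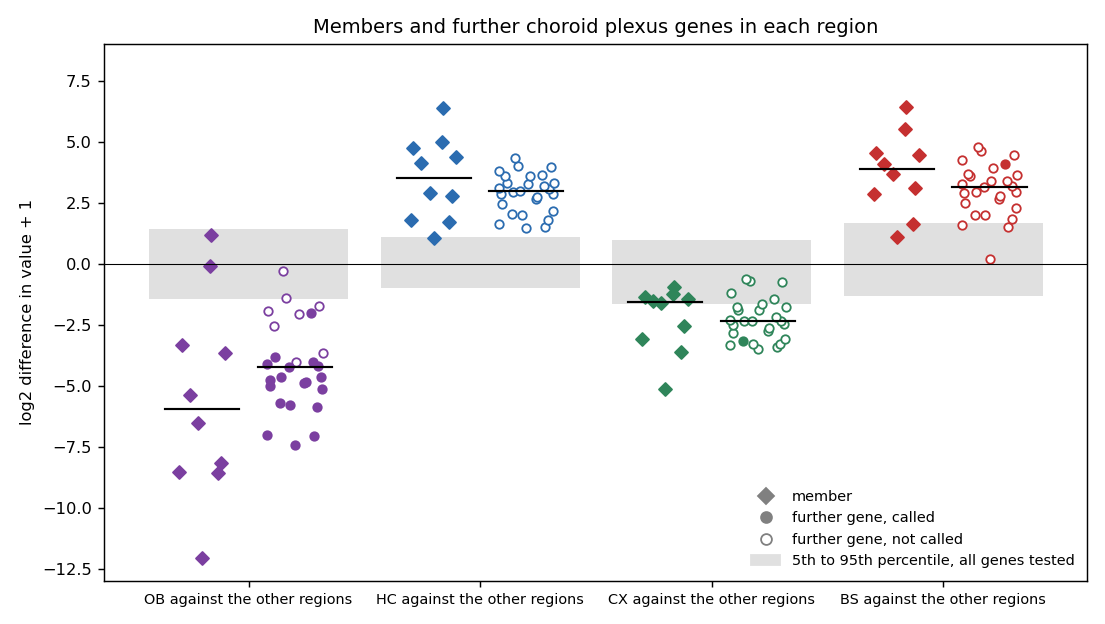
Log2 difference in value + 1 between each region and the pooled other regions (vertical axis) for the 10 members (diamonds) and the 27 further choroid plexus genes tested (circles, filled where called), with a line at each median. Grey bars span the 5th to 95th percentile of all 13875 genes tested, for example -1.47 to 1.43 in the OB, where the further genes have a median of -4.24.

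Of the further genes with the highest values, F5, coagulation factor V, had an OB mean of 55.6, a CX mean of 120 and a mean of 2653 in both the HC and the BS. Kcnj13, an inward-rectifier potassium channel, had means of 32.0 and 48.3 in the former pair and of 1009 and 1096 in the latter. Its OB samples ranged from 3.16 to 76.0 and overlapped its CX samples, at 41.4 and 55.3. Mfrp had no read in any sample. Reads per Ttr read were compared for the 25 further genes with at least 3 reads in each HC and BS sample. In 6 of them, Kcne2, Tmem72, Lmx1a, Krt18, Krt8 and Perp, every BS sample lay above every HC sample, and in none the reverse. The shares of all genes were 3.08% and 2.59%, which are no baseline for genes that follow Ttr. Lmx1a differed most, with a 4.15-fold higher mean ratio in the BS. The replicate order of the members was found in 21 of 25 further genes in the BS, in 14 of 17 in the CX and in 19 of 27 in the HC, counting those with at least 3 reads in the samples compared.

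Genes of ion transport in fluid secretion that other brain cells also use showed smaller differences. Of 10 tested, Slc12a2, the sodium-potassium-chloride cotransporter, was called lower in the OB (-1.50 ± 0.38, limma, adjusted p = 0.0349). Slc4a10, a bicarbonate transporter of the basolateral membrane, was called lower in the CX (-2.77 ± 0.80, limma, adjusted p = 0.28). Car14, a membrane-bound carbonic anhydrase, was called higher in the BS (3.24 ± 0.91, limma, adjusted p = 0.0539). Of all genes, 3.89% were called lower in the OB, 1.74% lower in the CX and 3.98% higher in the BS. Nothing about the list is read from 1 call in each. In the HC none was called by limma, edgeR or DESeq2, with 0, 1 and 1 genes at an unadjusted p under 0.05. Car2, the soluble carbonic anhydrase, and Atp1b1, a sodium pump subunit, were the most abundant, and the region means of Car2 lay between 2705 in the OB and 4262 in the CX. The list's median log2 difference was -0.85 in the OB and 0.87 in the BS.

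Of 10 close relatives of the members, 7 passed the filter, and none of the 7 had the order of HC and BS means above the CX mean and the CX mean above the OB mean. Slc4a4, the sodium bicarbonate cotransporter of astrocytes, had a mean of 27092 in the OB and 17066 in the HC, whereas Slc4a5 had no OB read. Aqp4, the astrocyte water channel, had region means from 7584 in the HC to 14007 in the BS. Otx1, the relative of Otx2, was called lower in the BS, by a log2 difference of -3.00 ± 0.41 (limma, adjusted p = 0.000685), with a mean of 22.8 there and 233 in the CX. Clic4 was called higher in the BS (1.11 ± 0.25, limma, adjusted p = 0.0215) and Sulf2 higher in the OB (1.17 ± 0.32, limma, adjusted p = 0.0505). Of all genes, 5.05% were called lower and 3.98% higher in the BS, and 4.15% higher in the OB.

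Markers of other cells moved with the members in part, and their part in the members' differences was not tested. The 10 ependymal genes, of the ciliated cells that line the ventricles, summed to 252 to 866 in BS samples and 190 to 291 in HC samples, against 68.4 to 143 for OB samples and 32.7 to 67.5 for CX samples. Tmem212 had no read in any OB or BS sample and Ccdc153 none in the BS. Of the 8 that passed the filter, Foxj1, the regulator of motile cilia, was called higher in the BS (2.27 ± 0.61, limma, adjusted p = 0.0440), as were Ak7 and Hydin. Ak7 and Pifo were called lower in the OB, and Hydin and Tekt1 lower in the CX. Of all genes, 3.98% were called higher in the BS, 3.89% lower in the OB and 1.74% lower in the CX. At an adjusted p under 0.05, only Foxj1 held in the BS, only Ak7 in the OB and none in the CX. In the BS the ependymal sum was 866 in replicate 1, 252 in replicate 2 and 644 in replicate 3, the order of the members. In HC replicates 1 to 3 it was 282, 190 and 291, lowest in replicate 2 like the member sum but highest in replicate 3, unlike it. In the OB and CX it did not follow the members. The members summed to more in CX replicate 1 (8401) than in replicate 2 (3413), and the ependymal genes to less.

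The 10 oligodendrocyte genes, which share Enpp2 as a marker, summed to 9580 to 15978 in the OB and 53062 to 91226 in the BS, with sums of 18817 to 40455 for HC and 19455 to 20755 for CX samples. Of them 7 were called lower in the OB and 5 higher in the BS, against 3.89% and 3.98% of all genes. Mbp, myelin basic protein, was called in both. At an adjusted p under 0.05, 7 held in the OB and 2 in the BS. The list summed to 53062, 63705 and 91226 in BS replicates 1 to 3, which is not the order of the members. The 8 genes of leptomeningeal fibroblasts summed to 3259, 703 and 819 in BS replicates 1 to 3, the order of the members, and to at most 934 elsewhere. Col1a2 was called higher in the BS, as were 3.98% of all genes. Dcn and Ogn were called lower in the CX, against 1.74% of all genes, and neither held at an adjusted p under 0.05. The CX log2 differences of the 8 genes ranged from -3.69 to 0.25. No endothelial gene was called in any region by limma, edgeR or DESeq2, with at most 1 gene of a region at an unadjusted p under 0.05 by limma, 0 by edgeR and 2 by DESeq2. Of the microglial genes P2ry12 alone was called, lower in the BS, where 5.05% of all genes were called lower. Among the neuronal genes 4 were called higher and 3 lower in the BS, against 3.98% and 5.05% of all genes. Gad1 was called higher and Nefl lower in the OB, against 4.15% and 3.89% of all genes. A list of 6 olfactory ensheathing cell genes, chosen after the values were seen, summed to 1908 to 2335 in the OB and 38.5 to 312 elsewhere.

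The astrocyte list ran opposite to the members among the BS samples. The 10 astrocyte genes summed to 106147, 302764 and 180880 in BS replicates 1 to 3, where the members summed to 366952, 77142 and 180306. In BS replicate 1 the 10 members thus summed to more than the 10 astrocyte genes. Each of the 10 astrocyte genes was lowest in BS replicate 1, intermediate in replicate 3 and highest in replicate 2. The share of all genes with that order was not counted, and the genes share their libraries, so nothing is read from this count. In the HC the astrocyte sum was 298146 in replicate 1, which had the highest member sum (220134), and 493721 and 501935 in replicates 2 and 3, whose member sums were 106103 and 201624. The CX had the highest astrocyte sums, 604168 and 679319, and the OB sums lay between 275949 and 327041. Slc1a2 made up 58.2% to 79.8% of the astrocyte sum in each sample. Without it the sums of BS replicates 1 to 3 were 44383, 93838 and 67565, and those of the CX 137427 and 131704. The list was not uniform across regions: Gfap, the astrocyte filament protein, had its lowest mean in the CX (1099), while Aqp4 and S100b had their highest means in the BS (14007 and 4715). Slc1a3 and Glul, the glutamate transporter and glutamine synthetase of astrocytes, were called lower in the BS (log2 differences -2.64 ± 0.34 and -1.46 ± 0.29, limma, adjusted p = 0.000479 and 0.00999). Of all genes, 5.05% were called lower there.

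**Figure D5:**
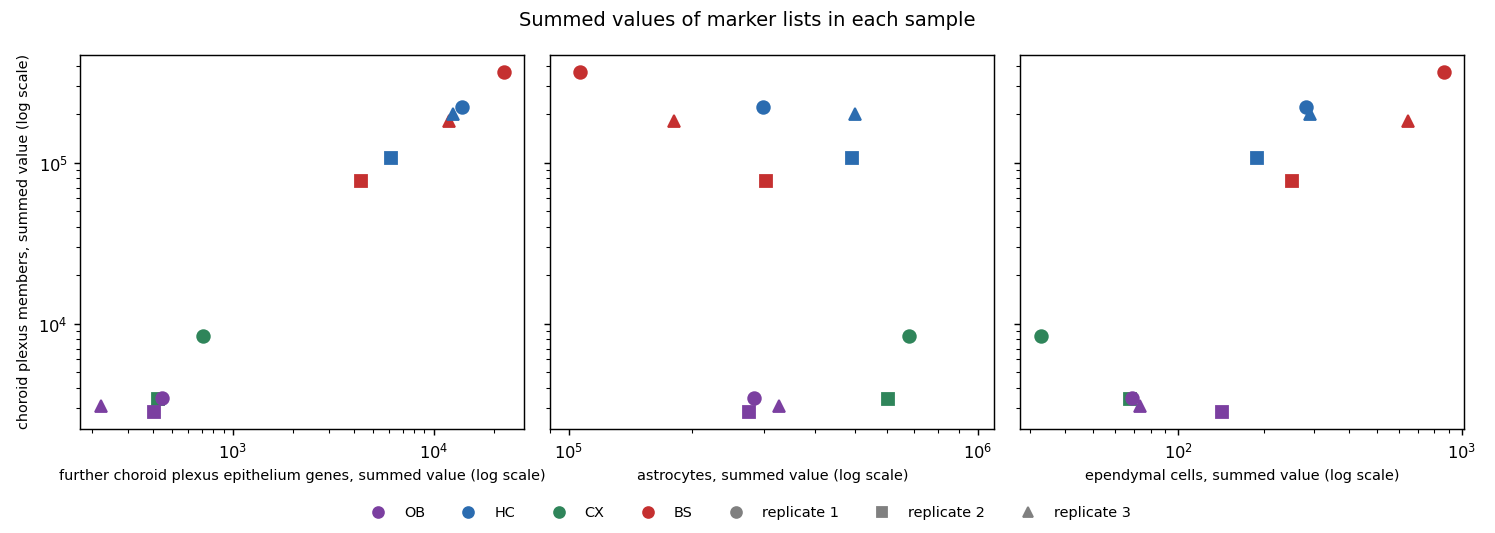
Summed value of the 10 members (vertical axis) against the summed value of the further choroid plexus genes, the astrocyte genes and the ependymal genes (horizontal axes), all logarithmic, for each of the 11 samples. In the BS, the sample with the highest member sum (366952) has the lowest astrocyte sum (106147) and the highest ependymal sum (866).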

How the data were processed

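RNA-Seq libraries were made from 5 ng of total RNA with the NuGEN Trio system, which includes rRNA depletion. The authors mapped reads to mm10 with STAR 2.5.0a, counted them on UCSC transcripts and normalized with DESeq2 1.20.0. The deposited values are a signal of this kind, and the paper calls them RPM. Dividing each value by the step of its sample gave a whole number of reads in 100% of cases (tolerance 0.01 read), which recovered the reads. Samples were grouped by the region in their labels. Low counts were removed with filterByExpr of edgeR 4.0.16. Each region was then compared with all samples outside it by limma 3.58.1 (R 4.3.3), two-sided, with an intensity trend, on values to which a pseudocount of 1 was added before the log2. Called means p under 0.01, fold over 1.5 and value over 5 in at least 2 replicates. Adjusted p-values follow Benjamini and Hochberg over the 13875 genes tested. DESeq2 1.42.0 and edgeR on recovered reads were alternatives, and the fit was tested on simulated data.

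The members and the gene lists were chosen with earlier results of these data known. Named are all members, of each other list the called genes (at most 4 per direction by size) and the 2 with the highest mean, and the 10 genes most like Ttr by each measure. Where a sentence counts 5 or fewer genes, others are named after their values were seen. Coordinates and exon lengths are those of GENCODE for GRCm38, and upstream windows those of RefSeq. Ttr, Folr1, Clic6, Enpp2 and Sulf1 have no window in the table used. Python 3.11.15 with pandas 2.3.3, numpy 2.4.6 and matplotlib 3.10.9 was used.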

Additional observations from a re-analysis of the deposited data

How the results depend on the processing

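The labels do not say whether replicate numbers pair the samples. Of 15 pairs of same-numbered samples from different regions, 3 had deviations that correlated over 0.1 across all genes, from -0.16 to 0.25, so no pairing was assumed, although most members had replicate 2 below replicate 1 in the HC, CX and BS. With a replicate block the further choroid plexus genes called numbered 18 for OB, 0 for HC, and 1 for both CX and BS, in place of 19, 0 and 1, and the median log2 difference of the members in the OB was -6.07 in place of -5.97. The count in the OB stayed within 1.5 times under all settings run, between 14 and 24 with other tools, pseudocounts, filters and adjusted p-values, and between 13 and 23 with a sample left out. The other counts were small and moved: with the mean for each region they were 25 for HC, 24 for BS and 17 for CX. With adjusted p-values, and likewise with edgeR under either scaling, both the CX and BS counts were 0, DESeq2 gave 10 for CX and 0 for BS, and the BS count was 0 and 2 with pseudocounts of 0.25 and 5. With a sample left out, counts ranged from 0 to 9 for HC, from 0 to 4 for CX and from 0 to 13 for BS. The share of all genes called was counted for the main fit only, so the counts under other settings have no baseline.

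The median log2 difference of the members kept its sign in each region under every setting run. In the OB it was -6.94 and -4.81 with pseudocounts of 0.25 and 5, -5.60 with the mean for each region, -7.16 with edgeR, -7.18 with DESeq2, -4.63 with RPM computed from the recovered reads and -4.67 with the members left out of the total. In the HC it was 1.16 with edgeR and 1.11 with DESeq2, and in the BS 1.47 and 1.52, in place of 3.51 and 3.88. In the CX it was -4.02 with edgeR, -4.01 with DESeq2, -2.21 with RPM and -2.25 without the members in the total, in place of -1.57. The cause was not tested. With a sample left out the medians lay between -6.50 and -5.66 for OB, 2.97 and 4.26 for HC, -2.29 and -1.19 for CX, and 3.36 and 4.48 for BS. The median correlation of the members was 0.901 and 0.938 with the other pseudocounts, 0.974 without the OB samples, 0.699 for deviations from the region means, 0.835 for these without the OB samples, and 0.916 to 0.935 with a sample left out. The shallowest samples were BS replicates 2 and 3 and CX replicate 2. Folr1 and Aqp1 rest on 9 and 6 reads over the CX, so that their CX levels are the least certain.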
